A study of Mus musculus with 20 samples.

Results

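The genes described here are 10 genes of touch and acid transduction out of the 55416 genes in the deposited count files of mouse dorsal root ganglia and were chosen by name. They are Piezo1, Piezo2, Asic1, Asic2, Asic3, Asic4, Stoml3, Tmem63b, Tmem120a and Tentonin3, which the annotation lists as Tmem150c. All 10 matched 1 Ensembl ID each.

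Dorsal root ganglia hold the cell bodies of the sensory neurons that carry touch, limb position, itch, temperature and pain to the spinal cord. Piezo channels are cation channels that open when the membrane is stretched or indented, and Piezo2 is the main transducer of light touch and proprioception in these neurons. Acid-sensing ion channels, encoded by the Asic genes, are sodium channels of the degenerin and epithelial sodium channel family that open when the tissue turns acid, as it does during inflammation. Stoml3 is a stomatin-like membrane protein that tunes the sensitivity of Piezo and acid-sensing channels. Tmem63b belongs to a family of stretch-activated channels, while Tmem120a (also called TACAN) and Tmem150c have been proposed as mechanosensitive channels or as modulators of them.

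The series compared lumbar ganglia (L3, L4 and L5) of adult C57Bl6 mice by genotype at Prdm12, which encodes a zinc finger regulator needed for nociceptors to form, and by injection of formalin, a chemical used to model inflammatory pain. By the characteristics, the controls were P12 Fl/Fl mice given tamoxifen and the inducible conditional knockouts (icKO) were AdvCreERT2; P12 Fl/Fl mice given tamoxifen, so that floxed Prdm12 alleles and tamoxifen were shared by all animals. The series text names a Rosa26-driven CreERT2 instead, and both names are given here as they stand. Tissue was taken 1 month after tamoxifen, from 10 animals with a formalin and a noninjected library each; the sources used here do not give the site of injection or the time between formalin and dissection. Of the 20 libraries, 19 were used, with 11763893 to 22392635 counts each. The formalin library of the animal titled icKO 1 held 2829 counts and was left out, so that animal is its noninjected library alone. Levels are CPM throughout, counts scaled to a library of 1000000 with TMM factors. The p-values over animal totals measure the spread between these animals, since the labels say no more about how they were bred or housed. Those of the comparisons between libraries come from a fit of the 19 libraries with no term for the animal. That fit treats both libraries of an animal as independent, so its p-values do not measure the spread between animals alone.

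Prdm12 itself did not follow the sample titles. For 4 of the 10 animals the genotype in the title and the genotype word in the deposited name differ: those titled control 1 and control 4 were deposited as icKO, and those titled icKO 2 and icKO 3 were deposited as control. Over both libraries of each animal, Prdm12 was at 101.1, 84.1 and 97.4 CPM in the animals titled control 2, 3 and 5, and at 73.5 and 98.5 CPM in those titled icKO 2 and 3. It was at 26.0 and 32.9 CPM in the animals titled control 1 and 4, and at 23.5, 18.2 and 18.3 CPM in those titled icKO 1, 4 and 5. Grouped by deposited name, Prdm12 was 90.9 ± 11.8 CPM (SD, n = 5) in controls and 23.8 ± 6.09 CPM (n = 5) in icKO animals, with no overlap (exact two-sided permutation test on log2 CPM, p = 0.00794, the smallest value this design allows). Grouped by title, it was 68.3 ± 36.1 and 46.4 ± 37.3 CPM (exact permutation p = 0.238). Directions below are therefore given for animals as deposited, with the grouping by title and the 6 animals whose records give the same genotype beside them, and animals are called by their titles.

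Pan-neuronal genes summed to between 9120 and 14210 CPM over the 4 groups, and satellite glia and Schwann cell genes were present in every library. The formalin library of the animal titled icKO 5 stood apart, with 1678 CPM of summed skeletal muscle genes, against 17.6 CPM in the noninjected library of the same animal. The formalin library of the animal titled control 4 held 270.4 CPM of them, and the other 17 libraries held 7.47 to 33.3 CPM. Summed erythroid genes ran from 420 to 1831 CPM in the formalin libraries deposited as icKO, and from 157 to 345 CPM in those deposited as control. Without injection they ran from 249.8 to 815 CPM and from 163 to 374 CPM.

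Per kilobase of exon, the genes spanned about 3 orders of magnitude in the animals deposited as control. Asic3, a proton-gated subunit prominent in sensory neurons, was highest at 63.8 ± 5.56 CPM per kb (SD, n = 5), followed by Piezo2 at 30.3 ± 1.79 and Tmem63b at 21.7 ± 1.93 CPM per kb. Tmem120a at 15.0 ± 0.405 and Asic2 at 14.7 ± 1.14 CPM per kb could not be ordered, because their ranges overlapped. Tmem150c at 11.0 ± 1.25 and Asic1 at 7.88 ± 1.36 CPM per kb overlapped as well. Piezo1, the Piezo channel better known from blood vessels and red blood cells, was far lower at 0.986 ± 0.287 CPM per kb. Piezo2 per kilobase was 32.7 ± 8.16 times Piezo1 per kilobase. Exon length here is the union of all annotated exons of a gene (17162 bases for Piezo2), not the length of the transcripts expressed. The order of the genes and the ratio of Piezo2 to Piezo1 may depend on that choice. Piezo1 shares 2441 of its 9935 exon bases with Ctu2 on the opposite strand, and neither its level nor the ratio was corrected for that. Asic4, a family member not known to form an acid-gated channel on its own, and Stoml3 were the lowest, at 0.0645 ± 0.0238 and 0.0469 ± 0.0231 CPM per kb, again with overlapping ranges. In the animals deposited as icKO the order of means was the same except that Asic2 (18.0 ± 2.89 CPM per kb) stood above Tmem120a (15.2 ± 1.81), with overlapping ranges, and the ranges of Asic3 (58.1 ± 10.5) and Piezo2 (41.3 ± 5.48) now met.

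**Figure D1:**
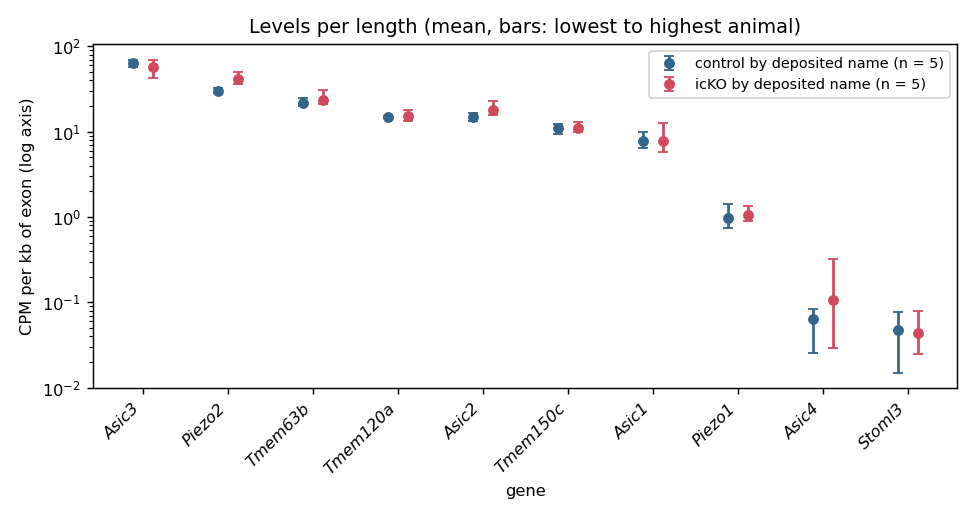
Levels of the 10 genes in CPM per kilobase of exon (log axis), as the mean of 5 animals of each deposited genotype with bars from the lowest to the highest animal. Asic3 and Piezo2 sit at the top, Piezo1 near 1 CPM per kb, and Asic4 and Stoml3 at the bottom.

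Asic4 and Stoml3 were close to the limit of detection in whole ganglia. Asic4 had 59 counts in the 19 libraries together, between 1 and 11 per library, which is 0.188 CPM before TMM scaling, with an exact 95% Poisson interval of 0.143 to 0.242. Stoml3 had 31 counts, between 0 and 4 per library and 0 in 4 libraries, which is 0.0988 CPM before TMM scaling (0.0671 to 0.140). These intervals cover counting error only. Both genes fell below the filter on low counts. The main fits therefore tested 8 of the 10 genes and give no result on Asic4 or Stoml3 at this depth. The exons of Asic4 also overlap those of Gm37264 on the opposite strand over 493 bases, and the library kit does not mark strand.

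Piezo2 was higher in every animal deposited as icKO than in any deposited as control, and it was the only one of the 8 tested genes to change with genotype over animal totals. Over both libraries of each animal, Piezo2 was at 538.0, 502.3 and 514.8 CPM in the animals titled control 2, 3 and 5 and at 484.9 and 563.5 CPM in those titled icKO 2 and 3, all deposited as control. It was at 710.5 and 619.7 CPM in the animals titled control 1 and 4 and at 858.9, 716.7 and 638.9 CPM in those titled icKO 1, 4 and 5, all deposited as icKO. The lowest icKO animal, titled control 4, thus lay above the highest control animal, titled icKO 3. The means were 521 ± 30.7 and 709 ± 94.1 CPM (SD, n = 5 each), and the log2 fold change was 0.47 (SE 0.09), or 1.39-fold (edgeR quasi-likelihood test, Benjamini-Hochberg adjusted p = 0.0242). That is 1 of 8 tested genes against 1.08% of the 19441 genes tested in this comparison, and 4.15% of those genes had animal totals that did not overlap between the deposited genotypes in either direction. Without the icKO 5 formalin library the log2 fold was 0.52 (adjusted p = 0.0123). All 8 erythroid genes also had positive folds over animal totals, with a median log2 fold of 1.44, and 0 of them passed edgeR's test (8 at an unadjusted p under 0.05, 1 by DESeq2). Their part in the Piezo2 difference was not tested. In bulk tissue, a change in the number of cells of a type and a change in RNA per cell cannot be told apart.

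**Figure D2:**
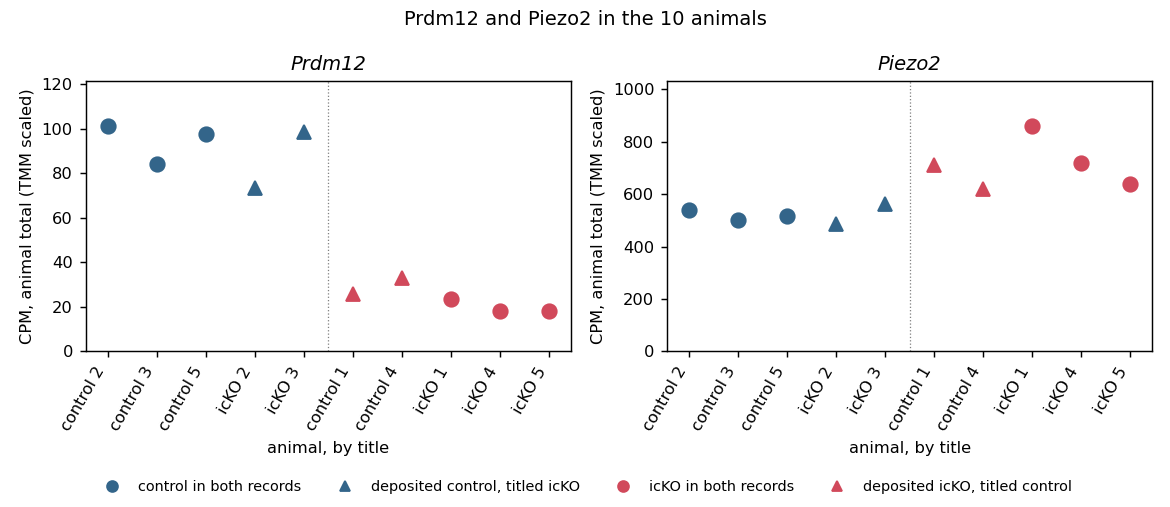
Prdm12 (left) and Piezo2 (right) in each of the 10 animals, in CPM over both libraries of the animal, ordered by deposited genotype (dotted line) and marked by triangles where the title gives the other genotype. In both panels the 4 triangles lie with the animals of their deposited genotype: Prdm12 is at 18.2 to 32.9 CPM and Piezo2 at 619.7 to 858.9 CPM in the 5 animals deposited as icKO.

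The Piezo2 difference had the same direction in both sexes. Among females it averaged 529 CPM in 3 animals deposited as control and 785 CPM in 2 deposited as icKO. Among males Piezo2 averaged 509 CPM in 2 and 658 CPM in 3 animals, without overlap in either sex. Piezo1 did not overlap in either sex, nor did Asic2 and Tmem63b in males. The share of all genes without overlap was not computed for groups this small. Within 1 sex edgeR's quasi-likelihood test lost the Piezo2 call (log2 fold 0.58, adjusted p = 0.319 in females, and 0.37, adjusted p = 0.233 in males). The fold stayed between 0.39 and 0.50 on the log2 scale when any 1 animal was left out. The adjusted p then ran from 0.0191 to 0.0995, and the call was lost without any 1 of the animals titled control 2, control 3, control 5, icKO 2, icKO 3 or icKO 4. With counts scaled to the summed pan-neuronal genes in place of all genes, the log2 fold was 0.41 (adjusted p = 0.0104; 1.07e-05 to 0.319 over the alternatives other than leaving out an animal). In the 6 animals whose records give the same genotype, Piezo2 did not overlap either, with means of 518 and 738 CPM. Its log2 fold was 0.49 (SE 0.10, edgeR adjusted p = 0.0795). Asic2 did not overlap there either, on 3 animals a group. The share of all genes without overlap was not computed for these 6 animals. By edgeR's test, 0 of the 8 genes passed in those 6 animals, against 0.897% of all genes, 2 had an unadjusted p under 0.05, and DESeq2 called 1. Without the icKO 5 formalin library, Piezo2 (log2 fold 0.61, adjusted p = 0.0076) and Asic2 (0.51, adjusted p = 0.0152) passed in these 6 animals, and without the animal titled icKO 5 Piezo2 passed (0.57, adjusted p = 0.0437).

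Grouped by title, the Piezo2 means were 577 CPM (control) and 653 CPM (icKO), and the groups overlapped widely (log2 fold 0.17, SE 0.16, adjusted p = 0.714). By title edgeR's quasi-likelihood test called 0 of the 8 genes and 0% of the 19441 genes tested, with 1815 of all genes and 0 of the 8 at an unadjusted p under 0.05. DESeq2 called 67 genes by title, 0 of them among the 8.

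**Figure D3:**
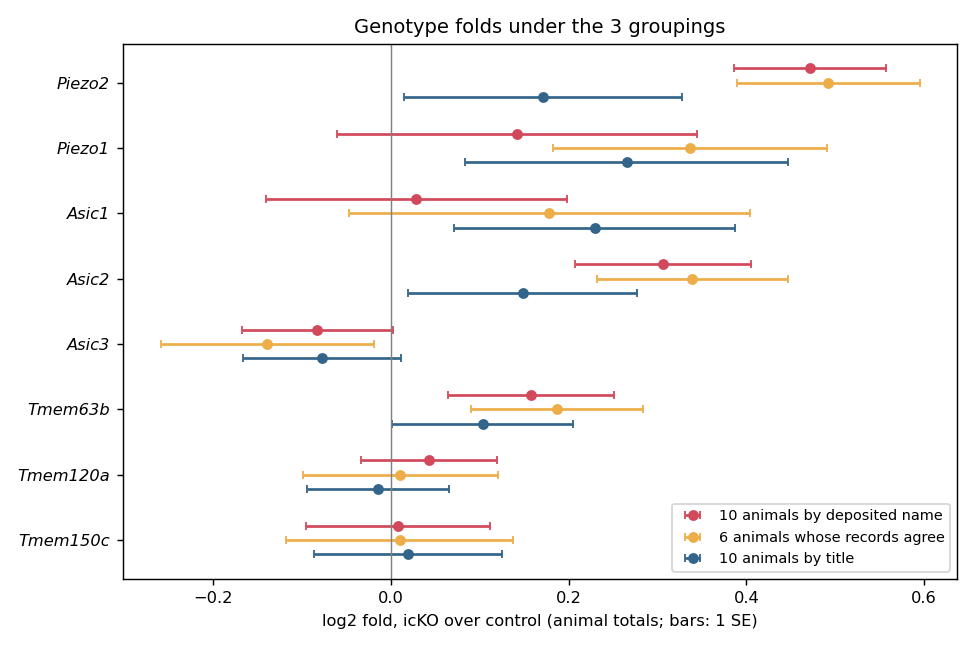
Log2 fold change of icKO over control for the 8 tested genes in animal totals, with bars of 1 SE, for 10 animals by deposited name, the 6 animals whose records give the same genotype, and 10 animals by title. Piezo2 is at 0.47, 0.49 and 0.17 in that order.

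In the noninjected libraries alone, Piezo2 and Asic2 rose in the libraries deposited as icKO. Piezo2 was at 533.7, 461.4, 516.6, 507.1 and 537.9 CPM in the animals titled control 2, control 3, control 5, icKO 2 and icKO 3, deposited as control. It was at 690.6, 558.7, 875.6, 775.1 and 782.4 CPM in those titled control 1, control 4, icKO 1, icKO 4 and icKO 5, deposited as icKO. The groups did not overlap, and the log2 fold was 0.53 (SE 0.10, edgeR adjusted p = 0.0066). The share of all genes without overlap was computed for animal totals only. Piezo2 kept this call under each alternative run for the noninjected libraries, including each animal left out in turn (log2 fold 0.48 to 0.63). These are 2 of 8 tested genes, against 8.39% of the 17931 genes tested. Summed pan-neuronal genes in the same libraries ran from 11717 to 14210 CPM in those deposited as icKO. They ran from 10043 to 11876 CPM in those deposited as control. By edgeR's test 2 of the 12 pan-neuronal genes rose (Syt1 at a log2 fold of 0.48 and Syn1 at 0.73). Of the 12, 11 had positive folds, with a median of 0.17, 6 had an unadjusted p under 0.05, and DESeq2 called 6. The part of pan-neuronal levels in the Piezo2 and Asic2 differences was not tested in the noninjected libraries.

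With formalin, Piezo2 did not pass the test. The libraries deposited as control held 548.4, 550.3, 513.8, 472.5 and 590.7 CPM in the animals titled control 2, control 3, control 5, icKO 2 and icKO 3. Those deposited as icKO held 727.6 and 729.9 CPM in the animals titled control 1 and 4, and 678.4 and 531.7 CPM in those titled icKO 4 and 5. The icKO 5 library alone lay within the control range. Summed skeletal muscle genes were at 1678 CPM in it and at 270.4 CPM in the library titled control 4, whose Piezo2 was the highest of the icKO group. The part of muscle levels in these Piezo2 values was not tested. The log2 fold of Piezo2 was 0.34 (SE 0.11, edgeR adjusted p = 0.0945). Without the icKO 5 library it was 0.43 (adjusted p = 0.0572). The adjusted p ran from 0.0164 to 0.256 over the alternatives other than leaving out an animal. By edgeR's quasi-likelihood test 0 of the 8 genes passed, against 3.89% of all genes, and 1 had an unadjusted p under 0.05. DESeq2 called 1, Piezo2, with an adjusted p of 0.0478. The difference between the formalin and noninjected genotype folds of Piezo2 was -0.19 (SE 0.15, adjusted p = 0.444; -0.10 and 0.734 without the icKO 5 formalin library), so the data do not show that they differ. Both sets of libraries come from the same animals.

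**Figure D4:**
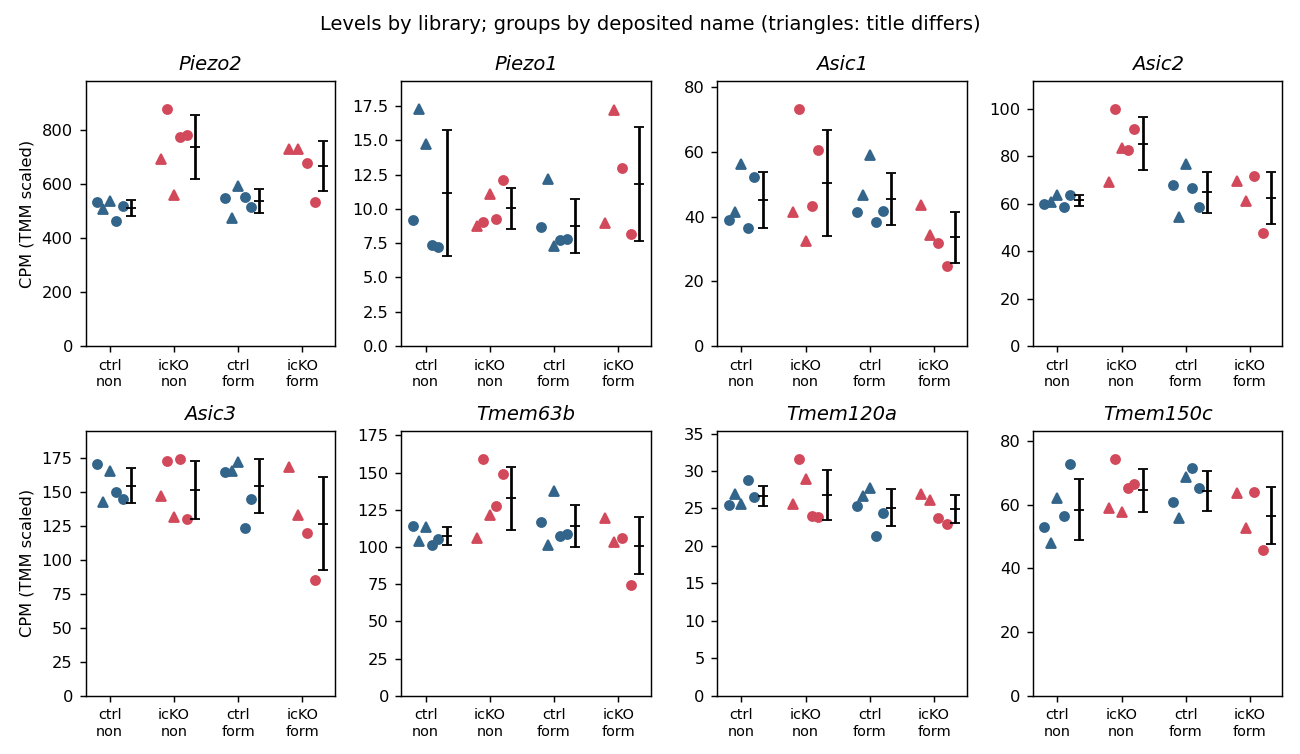
CPM of the 8 tested genes in each of the 19 libraries, grouped by deposited genotype and agent (ctrl, control; non, noninjected; form, formalin), with the mean and SD in black and triangles where the title gives the other genotype. In the noninjected libraries Piezo2 and Asic2 separate by deposited genotype, while the formalin groups of both genes overlap.

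Piezo1 was low and variable. It was at 8.92, 7.53, 7.49, 14.3 and 10.7 CPM over both libraries of the animals titled control 2, control 3, control 5, icKO 2 and icKO 3, and at 8.86, 13.4, 8.85, 11.6 and 9.86 CPM in those titled control 1, control 4, icKO 1, icKO 4 and icKO 5. The deposited genotypes overlapped, and the log2 fold was 0.14 (SE 0.20, 95% interval -0.26 to 0.54, edgeR adjusted p = 0.762). Within each sex the groups did not overlap but ran opposite ways. The ratio of icKO over control was 0.783 in females and 1.55 in males, on 2 or 3 animals a group. The share of all genes without overlap in such groups was not computed. Piezo1 exons share 2441 bases with Ctu2 on the opposite strand, and without strand the reads of that stretch cannot be assigned to either gene. Ctu2 itself was at 15.5 ± 1.07 and 15.3 ± 2.42 CPM in the deposited genotypes.

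Of the acid-sensing channels, Asic2, a subunit that forms channels with Asic1 and Asic3, was called in the noninjected libraries. There it was at 59.9, 58.8, 63.8, 60.7 and 63.6 CPM in the animals titled control 2, control 3, control 5, icKO 2 and icKO 3, deposited as control. It was at 69.2, 83.5, 99.7, 82.6 and 91.6 CPM in those titled control 1, control 4, icKO 1, icKO 4 and icKO 5, deposited as icKO. The control libraries were closely grouped and all lay below the icKO libraries, of which the library titled control 1 was the lowest. The log2 fold was 0.47 (SE 0.11), or 1.39-fold (edgeR adjusted p = 0.0177), and the call was lost without the animal titled icKO 1 (adjusted p = 0.0804) and without control 3 (0.0619).

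In the formalin libraries Asic2 was at 67.7, 66.6, 58.6, 54.5 and 76.8 CPM in the same order of control animals, and at 69.5, 61.3, 71.7 and 47.4 CPM in the animals titled control 1, control 4, icKO 4 and icKO 5. The ranges overlapped, with the icKO 5 library below every control library, and the log2 fold was -0.04 (SE 0.12, edgeR adjusted p = 0.889; 0.06 on the log2 scale without the icKO 5 library). The genotype folds with and without formalin differed by -0.52 (SE 0.16), which did not pass the test (adjusted p = 0.118; 0.00383 to 0.249 over the alternatives other than leaving out an animal). Over both libraries of each animal Asic2 was 62.8 ± 4.86 CPM in the animals deposited as control and 76.6 ± 12.3 CPM in those deposited as icKO, with overlap (log2 fold 0.31, SE 0.10, adjusted p = 0.166).

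Over animal totals, neither Asic3 nor Asic1 passed the genotype test. Asic3 ranged from 138 to 168 CPM in the animals deposited as control and from 105 to 169.7 CPM in those deposited as icKO, with a log2 fold of -0.08 (SE 0.09, 95% interval -0.25 to 0.08, edgeR adjusted p = 0.656). Asic1, the most widely distributed neuronal subunit, ranged from 37.4 to 57.4 CPM and from 32.8 to 71.8 CPM, with a log2 fold of 0.03 (SE 0.17, 95% interval -0.30 to 0.36). Its fold in the formalin libraries was -0.36 (SE 0.20, edgeR adjusted p = 0.367), and it passed with no filter on low counts (-0.35, adjusted p = 0.0171). The highest Asic1 total, 71.8 CPM, was that of the animal titled icKO 1.

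As shares of the summed Asic level per kilobase, Asic3 made up 73.8 ± 1.70% in the animals deposited as control and 69.1 ± 3.30% in those deposited as icKO (SD, n = 5 each). Asic2 made up 17.1 ± 1.15% and 21.5 ± 2.05%, with ranges of 15.7 to 18.7% and 18.2 to 23.7% that met at their ends. Asic1 made up 9.10 ± 1.14% and 9.21 ± 1.96%. Asic4 was 0.0760 ± 0.0309% and 0.114 ± 0.110%. No test was run on these shares.

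Tmem63b was at 108 ± 5.93 CPM (n = 5) in the noninjected libraries deposited as control and at 133 ± 21.3 CPM (n = 5) in those deposited as icKO, with overlap. The log2 fold of 0.32 (SE 0.12) did not pass (edgeR adjusted p = 0.0897), except without the icKO 5 formalin library (adjusted p = 0.0411), without the animal titled control 1 (0.0175) or with no filter (0.0124), and over animal totals it was 0.16 (SE 0.09, adjusted p = 0.411). Tmem63b shares 288 exon bases with Gm16172 and 106 with Mrpl14, both on the opposite strand. The reads of those stretches cannot be assigned to 1 gene without strand.

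Tmem120a and Tmem150c were the steadiest of the 8 genes across animals. Tmem120a was 25.9 ± 0.700 CPM in the animals deposited as control and 26.3 ± 3.12 CPM in those deposited as icKO, and the 95% interval of its log2 fold ran from -0.11 to 0.19. Tmem150c was 61.2 ± 6.96 and 61.6 ± 7.63 CPM, with an interval from -0.19 to 0.21. Those intervals assume normal error, are narrower than the F test of the same fit implies, and do not show that the levels are equal. The exons of Tmem150c overlap Tmem150cos on the opposite strand over 212 bases, and Tmem150cos was at 0.186 and 0.0930 CPM on average in the deposited genotypes.

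Together, 7 of the 8 tested genes had a positive genotype fold over animal totals by deposited name, and their median log2 fold was 0.09 beside 0.00 over all genes tested. In the noninjected libraries the median was 0.15 beside -0.01, and in the formalin libraries -0.10 beside -0.01. Of the 12 pan-neuronal genes, 10 had positive folds over animal totals, with a median of 0.05. Their median was 0.17 in the noninjected libraries (11 of 12 positive) and -0.15 in the formalin libraries (0 of 12 positive). The share of all genes with positive folds was not computed, and the part of pan-neuronal levels in these medians was not tested.

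Formalin was compared with no injection within each deposited genotype and over both. The fit used all 19 libraries, including the noninjected library of the animal titled icKO 1, which has no formalin partner, while the differences within an animal come from the 9 animals with both, 5 deposited as control and 4 as icKO. In that fit edgeR's quasi-likelihood test called 0 of the 8 genes in every formalin comparison, and 0% of the 17931 genes tested in each. Over both genotypes, 868 of all genes and 1 of the 8 (Asic2) had an unadjusted p under 0.05, and DESeq2 called 2 genes, 0 of them among the 8. Within the animals deposited as control, 686 of all genes and 0 of the 8 had such a p, and DESeq2 called 0. Within those deposited as icKO, 4170 of all genes and 3 of the 8 did, and DESeq2 called 1120 genes with 2 of the 8 among them. For the difference between the genotypes, 4201 of all genes and 2 of the 8 had such a p, and DESeq2 called 850 genes with 1 of the 8.

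The 3 genes with low unadjusted p within the icKO animals were Asic2, Asic1 and Tmem63b, all with negative folds. Asic2 differed between formalin and noninjected libraries by 0.01 on the log2 scale in the animal titled control 1, by -0.45 in control 4, by -0.21 in icKO 4 and by -0.95 in icKO 5. Asic1 differed by 0.07, 0.07, -0.45 and -1.30 in the same order, and Tmem63b by 0.17, -0.23, -0.27 and -0.99. In each of the 3 genes the animal titled icKO 5 had the lowest value, and the animal titled control 1 lay above 0.

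The fitted folds within the icKO animals were -0.44 (SE 0.12) for Asic2, -0.54 (SE 0.20) for Asic1 and -0.38 (SE 0.12) for Tmem63b, with adjusted p of 0.0887, 0.130 and 0.103 by edgeR's test. Without the icKO 5 formalin library they were -0.33, -0.43 and -0.26 (adjusted p 0.327, 0.402 and 0.361). With the animal as a block they were -0.40, -0.40 and -0.33 (adjusted p 0.188, 0.291 and 0.247). Without the animal titled control 1, Asic2 (-0.56, adjusted p = 0.0230) and Tmem63b (-0.52, adjusted p = 0.0236) passed, and so did their difference between the genotypes (-0.64 and -0.61, adjusted p = 0.0318 for both). In the formalin libraries deposited as icKO, summed pan-neuronal genes ran from 9120 CPM, in icKO 5, to 12082 CPM, in control 1, against 11254 to 12982 CPM in those deposited as control. The part of muscle, erythroid and pan-neuronal levels in these folds was not tested.

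Within the 5 animals deposited as control, none of the 8 formalin folds passed edgeR's test. The fitted log2 folds ran from -0.34 for Piezo1 (SE 0.25) to 0.14 for Tmem150c (SE 0.12), with a median of 0.04. Piezo2 differed by 0.04, 0.25, -0.01, -0.10 and 0.13 in the animals titled control 2, control 3, control 5, icKO 2 and icKO 3. Tmem150c, Asic1 and Tmem63b were each higher with formalin in 4 of these 5 animals, and Tmem120a was lower in 4. The share of all genes with such counts was not computed, and 11 of 12 pan-neuronal genes had positive fitted folds in this comparison. Piezo1 differed by -1.01 in the animal titled icKO 3 and by -0.50 in icKO 2, while the other values ran from -0.08 to 0.12.

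**Figure D5:**
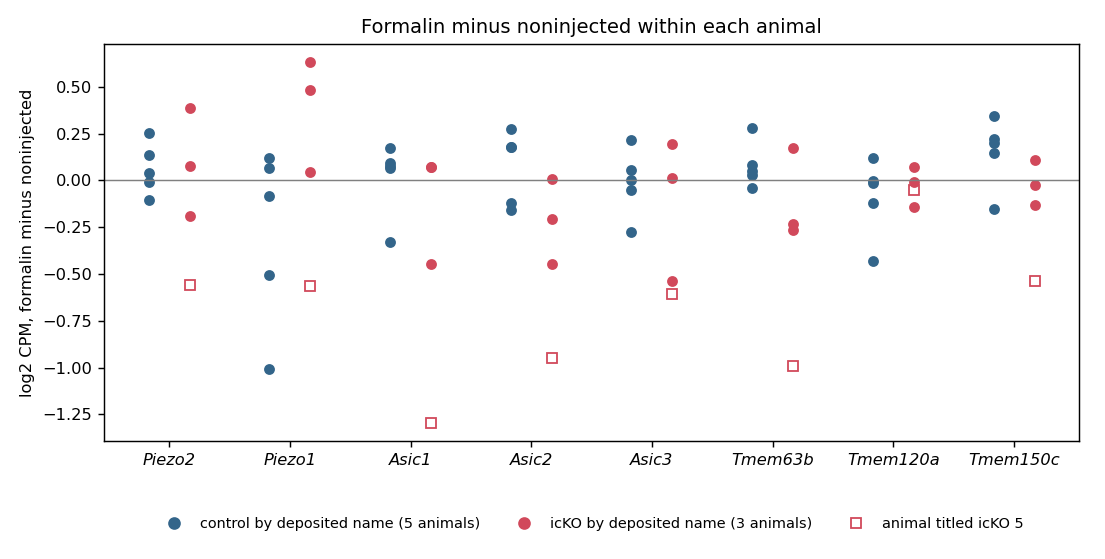
Log2 CPM of the formalin library minus that of the noninjected library of the same animal, for the 8 tested genes in 5 animals deposited as control and 4 deposited as icKO (the open square is the animal titled icKO 5). That animal is the lowest icKO animal for each gene but Tmem120a, down to -1.30 for Asic1.

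Of 21 relatives and partners, such as stomatin (Stom), the Piezo-binding proteins Mdfic and Mdfi and the epithelial sodium channel subunits, 17 were tested and 0 passed over animal totals by edgeR's quasi-likelihood test, against 1.08% of all genes. An unadjusted p under 0.05 was found for 2 of them, and DESeq2 called 0. In the noninjected libraries 1 of the 17 passed, against 8.39% of all genes: Tmem87a, a membrane protein proposed to take part in mechanosensitive currents, fell by 0.23 on the log2 scale (edgeR adjusted p = 0.0292).

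Of 14 other mechanosensitive channels, 1 rose and 1 fell over animal totals, against 1.08% of all genes called. Trpc5, a calcium-permeable channel, rose by 0.94 on the log2 scale (SE 0.19, edgeR adjusted p = 0.0406). Kcnk10, a stretch-sensitive potassium channel that lowers excitability, fell by 0.40 (SE 0.08, adjusted p = 0.0429). Trpc5 was scarce, at 0.584 to 4.68 CPM in single libraries, and Kcnk10 was at 9.08 to 16.4 CPM. In the noninjected libraries 1 of the 14 rose and 2 fell, against 8.39% of all genes called. There Trpc5 rose by 1.21, while Trpc6 and Kcnk10 fell by 0.49 and 0.33. In the formalin libraries 2 of the 14 fell, against 3.89% of all genes called, and Kcnk10 was among them, with a log2 fold of -0.53 (edgeR adjusted p = 0.0153; -0.48 and 0.0413 without the icKO 5 library).

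Of 9 other acid sensors, 0 passed over animal totals by edgeR's quasi-likelihood test, against 1.08% of all genes. An unadjusted p under 0.05 was found for 2 of the 9, and DESeq2 called 2. The lowest p belonged to Pacc1, a proton-activated chloride channel (log2 fold -0.29, SE 0.08, adjusted p = 0.120), and Otop1, a proton channel (-0.42, SE 0.12, adjusted p = 0.143). In the formalin libraries 1 of the 9 rose, against 3.89% of all genes called. It was Gpr132, a G protein-coupled receptor also found on immune cells, which rose by 1.34 (edgeR adjusted p = 0.0451). That call was lost without the icKO 5 library (1.17, adjusted p = 0.116).

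Markers of the neurons that carry Piezo2 were set beside it. Of all genes tested, edgeR's test called 1.08% over animal totals, 8.39% in noninjected libraries and 3.89% in formalin libraries. In the 6 animals whose records give the same genotype it called 0.897%, and by title 0%. Of 14 markers of A-fibre mechanoreceptors and proprioceptors, 12 had positive folds over animal totals, their median log2 fold was 0.19, and 1 passed: Ntrk3, the neurotrophin-3 receptor of proprioceptors and touch neurons, rose by 0.70 (SE 0.10, edgeR adjusted p = 0.00682). In the noninjected libraries 2 of the 14 rose, Ntrk3 by 0.72 and Kcns1, a potassium channel subunit of large neurons, by 0.82. The summed level of the 14 markers there ran from 2306 to 4484 CPM in libraries deposited as icKO and from 2567 to 3232 CPM in those deposited as control. In the formalin libraries 1 of the 14 rose, 8 folds were positive and 6 negative, and their median was 0.05. Of 6 markers of C-low-threshold mechanoreceptors, 0 passed over animal totals (0 at an unadjusted p under 0.05, and 0 by DESeq2), with a median of -0.01. In the 6 animals whose records give the same genotype, 3 of the 14 A-fibre markers rose and their median was 0.42, while 0 of the 6 C-low-threshold markers passed edgeR's test (5 at an unadjusted p under 0.05, 1 by DESeq2), with a median of -0.25. By title, 14 of 14 A-fibre markers had positive folds with a median of 0.35, and the C-low-threshold median was -0.27. There 0 of either list passed edgeR's test, 8 and 4 had an unadjusted p under 0.05, and DESeq2 called 0 and 2. Of 12 nociceptor markers, 0 passed over animal totals by edgeR's test (3 at an unadjusted p under 0.05, 1 by DESeq2), with a median of -0.14. Among noninjected libraries 1 of the 12 rose, against 8.39% of all genes, and the median was 0.03. That gene was Sst, which encodes the peptide somatostatin, at a log2 fold of 0.83 (edgeR adjusted p = 0.0232). Among formalin libraries 2 of the 12 fell (7 at an unadjusted p under 0.05, 2 by DESeq2), with a median of -0.32. Gfra3, the artemin receptor, was among them, with a log2 fold of -1.24 (edgeR adjusted p = 0.0416; -1.09 and 0.117 without the icKO 5 library). The part of these marker levels in the Piezo2 difference was not tested.

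For the 3 genes that varied most across the 10 animals, the genes with the most similar pattern were found by the root mean square difference of centred log2 CPM, among 13180 genes. Closest to Piezo2 were Plekhd1 at 0.0592, C1qtnf1 at 0.0670 and Lrrn1 at 0.0684. Closest to Asic1 were C2cd4c at 0.134, Cdr2l at 0.138 and Faxc at 0.141. Closest to Piezo1 were S1pr1 at 0.155, Adamts1 at 0.159 and Sema6b at 0.165. For comparison, the SD of log2 CPM over the animals was 0.27 for Piezo2, 0.33 for Asic1 and 0.32 for Piezo1. The animals share their libraries and scaling, so these are descriptions with no test.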

How the data were processed

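The deposited files hold raw read counts per Ensembl gene. The authors made them with STAR 2.7.8a and featureCounts 2.0.1, after bcl2fastq 2.20.0.422, on GRCm39, as named in the submitters' processing notes; the kit did not mark strand, per the labels' protocols. Annotation release, strand setting and the handling of reads with several matches: not given in the sources used here. Names matched 52083 of 55416 IDs. Exon lengths and overlaps came from an annotation of another build, so no coordinates are printed.

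Counts were tested with edgeR 4.0.16 in R 4.3.3 (robust quasi-likelihood, TMM, filterByExpr, sex as covariate), with Benjamini-Hochberg adjustment over all genes tested and a threshold of 0.05. SEs come from the fold and the F statistic. Intervals assume normal error, so all of them are narrower than the F test of the same fit implies. Genotype was tested on each animal's summed libraries. Other comparisons used 1 fit of 4 groups of libraries, with no term for the animal. The fits were tested on simulated data. Alternatives were RLE factors, DESeq2 1.42.0, no filter, no sex term, each animal left out, pan-neuronal scaling, each sex, only the groups compared, the animal or title number as a block, and no icKO 5 formalin library. Libraries are paired by the animal number in the deposited names; deviations of paired libraries from their group means correlated at -0.03 to 0.43, with 8 of 9 pairs over 0.1.

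The 10 genes and the lists were chosen with earlier results of these data known. All 10 are named, as are up to 4 passing genes of a list, or otherwise the 2 with the smallest p. The genes of similar pattern were sought for 3 of the 8 tested genes, since Asic4 and Stoml3 had too few counts, a choice made after their values were seen. No protein sequence of these genes is used here. Some genes of the lists are not reported here.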

Additional observations from a re-analysis of the deposited data

Results flagged for a closer look

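Of 48 groups of 4 or 5 values of the 8 tested genes, 3 held a value far from the rest, and chance alone gives about 1 in 20 groups. Piezo1 in the formalin libraries deposited as control was at 12.2 CPM in the animal titled icKO 2, with the other 4 libraries at 7.32 to 8.67 CPM. Asic1 over animal totals deposited as icKO was at 71.8 CPM in the animal titled icKO 1, with the others at 32.8 to 42.7 CPM. Tmem63b over the same totals was at 156 CPM in the animal titled icKO 1, with the others at 107 to 115 CPM; that total is the noninjected library alone.

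Piezo1 ran opposite ways in the sexes by deposited name: every icKO female lay below every control female (icKO over control 0.783), and every icKO male lay above every control male (1.55). Tmem120a did so by title, at 1.09 in females and 0.903 in males. These groups held 2 or 3 animals each, and neither difference between the sexes was tested. The share of all genes without overlap in such groups was not computed.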

How the results depend on the processing

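Of the 8 tested genes, the number called over animal totals by deposited name was 1, 2 with no filter and 0 within females or within males. In the 6 animals whose records match it was 0, 1 with DESeq2, 2 with no filter and 2 without the icKO 5 formalin library. In the formalin libraries it was 0, 1 with DESeq2 and 3 with no filter. For formalin it was 0, and with no filter 1 over both genotypes, 3 within icKO animals and 3 for the difference between genotypes, where DESeq2 called 2 and 1. Leaving out each animal gave 0 to 1 over animal totals, 0 to 1 in the 6 animals, 1 to 3 in the noninjected libraries, 0 to 2 for formalin within icKO animals and 0 to 2 for the difference, both calls of each arising without the animal titled control 1. With the animal as a replicate block 0 of the 8 genes were called in any formalin comparison, as without it, and by title the block on title numbers also called 0.

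Folds that crossed 0 were not called in either setting. Over animal totals by deposited name, Asic1 was -0.022 with no sex term, -0.034 with pan-neuronal scaling and -0.21 in males; Tmem120a was -0.019 with pan-neuronal scaling and -0.040 in males; Tmem150c was -0.052 and -0.20 in the same settings; Piezo1 was -0.35 and Asic3 0.015 in females. With no sex term Tmem120a was 0.015 by title and -0.0040 in formalin libraries, and Asic3 was -0.037 in noninjected libraries (-0.013 with only those groups). Without the icKO 5 formalin library Asic2 was 0.061 in formalin libraries, and Piezo1, Piezo2 and Tmem150c were 0.021, 0.015 and 0.023 for formalin over both genotypes; Tmem150c was 0.0021 there with the animal as a block. Asic1 was -0.00044 with DESeq2 for formalin within controls, and Tmem120a was -0.00077 with RLE, -0.0067 with DESeq2 and -0.0079 with no sex term for the difference between genotypes.

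Leaving out animals gave, over totals by deposited name, -0.19 to 0.15 for Asic1, -0.089 to 0.079 for Tmem150c and -0.026 to 0.073 for Tmem120a. By title it gave -0.037 to 0.086 for Tmem150c, -0.058 to 0.028 for Tmem120a and -0.14 to 0.021 for Asic3. In the 6 animals the ranges were -0.15 to 0.39 for Asic1, -0.13 to 0.069 for Tmem120a, -0.17 to 0.13 for Tmem150c and -0.24 to 0.0017 for Asic3. In noninjected libraries they were -0.27 to 0.10 for Piezo1, -0.037 to 0.076 for Tmem120a and -0.078 to 0.057 for Asic3, and in formalin libraries -0.12 to 0.065 for Asic2 and -0.015 to 0.056 for Tmem120a. For formalin over both genotypes they were -0.13 to 0.071 for Piezo1, -0.086 to 0.025 for Tmem150c and -0.10 to 0.033 for Piezo2, within controls -0.04 to 0.097 for Asic1 and -0.070 to 0.055 for Asic3, and for the difference -0.091 to 0.059 for Tmem120a.

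Over all genes, the 209 calls over animal totals became 806 with DESeq2, 1811 with no filter, 341 without the icKO 5 formalin library, 121 with pan-neuronal scaling and 76 to 278 with an animal left out. The 697 calls in formalin libraries became 29 with only those groups and 205 without the icKO 5 library, and the 1504 in noninjected libraries 345 to 2129 with an animal left out. The cause of these changes was not tested. Asic4 and Stoml3 were limited by depth.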
